A study of Mus musculus with 21 samples.

Results

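Nuclear receptor genes, without those of the retinoic acid receptors, were described in RNA-seq data of germ cells enriched from mouse testes. They were taken from the gene symbols of the deposited table by a pattern that covers the families NR0 to NR6 and the older names of their members (Esr, Esrr, Ppar, Ror, Rxr, Thr, Vdr, Pgr and Hnf4). The androgen receptor and the retinoic acid receptors have other symbols, and 1 symbol that the pattern matches was set aside. This left 42 of the 37620 genes in the table, and all 42 are protein-coding. Nr1i2 and Nr1i3, which encode the pregnane X receptor and the constitutive androstane receptor, do not match the pattern and lay at 0.0258 and 0.218 FPKM, a measure of fragments scaled to the length of the transcript and the size of the library.

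All libraries came from wild-type C57BL/6J (B6) males at 12 days post-partum (dpp), a stage when cells of early meiosis are frequent in the testis. There was no treatment and no other genotype. Testes were digested with enzymes to enrich germ cells, which the labels call spermatocytes, and the mRNA was sequenced as 12 libraries. Each of the 4 sample numbers in the labels, written 186wt, 343wt, 444wt and 456wt, stands for 3 of them. The labels do not say whether the 3 libraries of a number came from separate animals. Each level below is the mean of the 4 sample numbers ± SD (n = 4), and each p-value measures the differences between the 4 samples against the spread between the 3 libraries of a number, which may be technical.

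Nuclear receptors are transcription factors, many of which are switched by small lipophilic ligands such as steroids, thyroid hormone, vitamin D, oxysterols and fatty acids. Most bind DNA through a domain of paired zinc fingers, as single molecules, as pairs of the same receptor or as pairs with a retinoid X receptor, and recruit coactivators when active and corepressors when not. Others have no known natural ligand and are called orphan receptors. In the testis, several are best known from the somatic cells: Sertoli cells, which nurse the germ cells, Leydig cells, which make androgens, and the smooth-muscle-like peritubular myoid cells that surround the tubules.

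The enrichment left a mixture of cells. Markers of spermatogonia summed to 596 to 831 FPKM over 8 genes in the 4 sample numbers, and those of meiotic germ cells to 368 to 599 FPKM over the 11 genes found of 12 listed. Sertoli markers, 9 found of 10 listed, summed to 4031 FPKM in 186wt, 4171 in 343wt, 2332 in 444wt and 2503 in 456wt, with Clu as the most abundant of them (1844 ± 574 FPKM). Peritubular myoid markers summed to 690, 329, 874 and 1508 FPKM over 7 genes in the same order of sample numbers. Leydig markers summed to 63.5, 115, 24.5 and 64.3 FPKM over 7 genes, endothelial markers to 24.1, 28.9, 19.9 and 47.5 over 7, macrophage markers to 27.7, 58.7, 12.9 and 49.2 over 8, and erythroid markers to 21.5, 58.5, 66.7 and 124 over 4. No marker was at 0 in every library. In such bulk samples, fewer cells of a type and less RNA per cell cannot be told apart, and the part of the somatic cells in the receptor levels was not tested.

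Receptors select their DNA sites with a short stretch of the zinc finger domain. A search of their coding sequences (GENCODE M1 on NCBI build 37) for the first zinc finger, given by a pair of cysteines, 13 residues and another pair of cysteines with the second finger after it, found it in 40 of the 42 genes. Nr0b1 and Nr0b2, which encode receptors without a DNA-binding domain, had no match. The 6 codons from the third cysteine onward form the P box, which contacts the bases that distinguish one response element from another. By the translation of these 6 codons, the 40 genes fell into 9 groups. The largest held 24 genes with a summed level of 407 FPKM, of which 20 reached 1 FPKM. The 3 NR2F genes summed to 62.0 FPKM, the steroid receptors Nr3c1, Nr3c2 and Pgr to 15.4, the 3 estrogen-related receptors to 11.4, the estrogen receptors Esr1 and Esr2 to 3.16 and the Hnf4 pair to 0.0283. The remaining 3 groups held a single gene each. The finger and P box of members of 7 of the 9 groups, with 3 abundant genes of the largest group (Nr1h2, Nr4a1 and Vdr) for comparison, are shown as 69 bases of coding sequence within 1 exon, with the P box in capitals. Positions are on NCBI build 37, with chromosome 7 written as chr7.0 and so on, and the bases run 5′ to 3′ on the coding strand.
Nr1h2, chr7.0:51807470-51807538, minus strand: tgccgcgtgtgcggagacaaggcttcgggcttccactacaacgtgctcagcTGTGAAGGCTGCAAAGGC
Nr4a1, chr15.0:101101323-101101391, plus strand: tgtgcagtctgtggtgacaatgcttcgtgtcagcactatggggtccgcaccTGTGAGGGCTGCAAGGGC
Vdr, chr15.0:97715233-97715301, minus strand: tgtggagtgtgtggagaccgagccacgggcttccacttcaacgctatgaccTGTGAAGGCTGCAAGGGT
Nr2f6, chr8.0:73904934-73905002, minus strand: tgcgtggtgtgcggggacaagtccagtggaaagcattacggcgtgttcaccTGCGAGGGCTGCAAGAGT
Nr2f2, chr7.0:77504913-77504981, minus strand: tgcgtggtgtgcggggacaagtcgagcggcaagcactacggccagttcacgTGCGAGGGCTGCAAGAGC
Nr2f1, chr13.0:78337520-78337588, minus strand: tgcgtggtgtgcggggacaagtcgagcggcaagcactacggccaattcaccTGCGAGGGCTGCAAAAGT
Esrra, chr19.0:6994575-6994643, minus strand: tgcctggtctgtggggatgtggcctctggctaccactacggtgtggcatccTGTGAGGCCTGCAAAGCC
Esr1, chr10.0:5599756-5599824, minus strand: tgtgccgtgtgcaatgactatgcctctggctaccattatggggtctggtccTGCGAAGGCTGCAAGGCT
Nr2e1, chr10.0:42298029-42298097, minus strand: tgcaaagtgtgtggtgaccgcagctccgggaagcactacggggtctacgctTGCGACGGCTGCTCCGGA
Nr2e3, chr9.0:59797027-59797095, minus strand: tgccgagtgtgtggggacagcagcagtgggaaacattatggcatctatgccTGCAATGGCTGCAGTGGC
Hnf4a, chr2.0:163377375-163377443, plus strand: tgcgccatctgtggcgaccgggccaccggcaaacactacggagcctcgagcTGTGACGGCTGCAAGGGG
In Thra and Rxrb, the most abundant receptor and the most abundant retinoid X receptor, and in Nr5a2, alone in its P box group, the same 69 bases are split over 2 exons, and the positions span the intron.
Thra, chr11.0:98618272-98622192, plus strand: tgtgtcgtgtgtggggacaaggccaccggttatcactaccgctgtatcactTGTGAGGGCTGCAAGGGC
Rxrb, chr17.0:34170629-34171007, plus strand: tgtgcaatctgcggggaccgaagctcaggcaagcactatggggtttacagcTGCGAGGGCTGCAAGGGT
Nr5a2, chr1.0:138840003-138841601, minus strand: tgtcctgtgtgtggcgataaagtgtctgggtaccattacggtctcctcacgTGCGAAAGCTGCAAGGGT
Over the 23 residues encoded by these bases, pairs of receptors were between 47.8% and 100% identical, with a median of 65.2%. Of close paralogs, some differed in residues, such as Esr1 and Esr2 (95.7% identical) and Nr2c1 and Nr2c2 (91.3%). Others encoded the same finger in different bases. Thra and Thrb, the thyroid hormone receptors, were 100% identical in residues and 87.0% in bases, Rxra and Rxrb 100% and 85.5%, and Nr1d1 and Nr1d2 100% and 84.1%. Nr2f1 and Nr2f2 were the closest in bases among the pairs with identical residues, at 94.2%. Their levels still lay far apart, at 0.343 ± 0.049 FPKM for Nr2f1 and 24.2 ± 10.1 for Nr2f2.

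The receptors were widely transcribed in these samples. Of the 42, 38 (90.5%) had a mean of at least 0.1 FPKM, against 55.3% of all genes and 74.2% of protein-coding genes. At a mean of at least 1 FPKM there were 29 (69.0%), against 38.1% of all genes and 58.7% of protein-coding genes. At 10 FPKM or more there were 15 (35.7%), against 21.9% and 36.1%. Of other transcription factor families, taken by symbol, 21 of 44 forkhead genes (47.7%) and 8 of 40 Hox genes (20%) reached 1 FPKM. These shares are descriptions without a test. The median receptor lay at 2.24 FPKM, below the median of 3.01 FPKM over protein-coding genes. A few genes carried most of the signal, with 54.4% of the summed receptor FPKM in the top 5 genes and 79.0% in the top 10. From 536.7 to 556.9 FPKM, the summed receptor level hardly varied between the sample numbers.

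**Figure D1:**
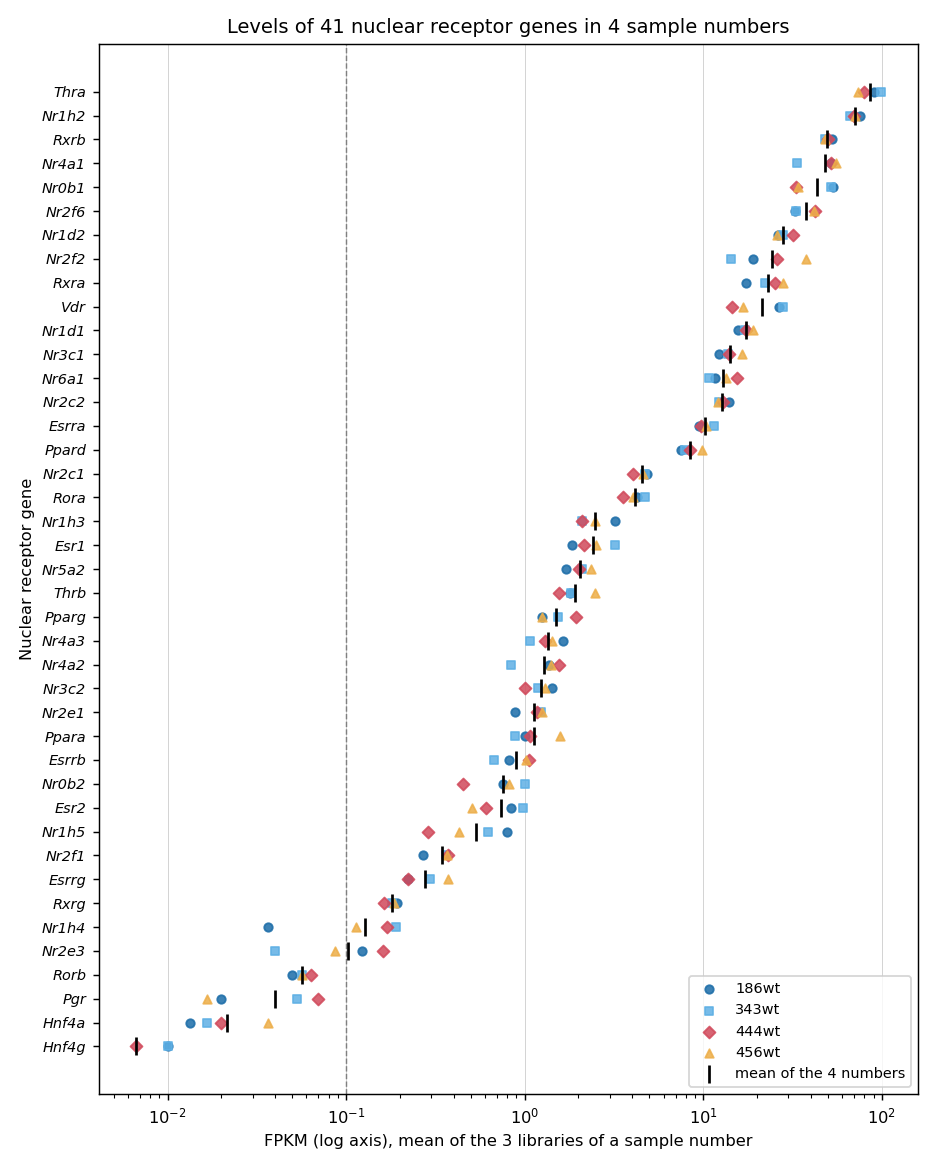
Level of 41 of the 42 nuclear receptor genes in FPKM on a log axis, as the mean of the 3 libraries of each sample number (coloured symbols) and the mean of the 4 numbers (black bar). The dashed line marks 0.1 FPKM, and Hnf4g in 456wt, at 0, is not drawn. Levels fall from 85.9 FPKM for Thra to 0.00667 for Hnf4g with few gaps.

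Ranked by level, Thra was followed by Nr1h2, Rxrb, Nr4a1, Nr0b1, Nr2f6, Nr1d2, Nr2f2, Rxra and Vdr. For 34 of the 41 pairs of neighbours in the whole order, the ranges of the 4 sample numbers overlapped, so most adjacent ranks cannot be told apart. The ranges did not overlap between Nr1h2 and Rxrb, Nr2f6 and Nr1d2, Nr2c2 and Esrra, Ppard and Nr2c1, Rora and Nr1h3, Esrrg and Rxrg, and Hnf4a and Hnf4g. These are ranges of sample number means, and the single libraries of some of these pairs overlapped. Hnf4a and Hnf4g were at 0 in 5 and 9 of the 12 libraries, with single libraries of up to 0.110 and 0.0300 FPKM. The 4 genes below 0.1 FPKM were Rorb (0.0567 ± 0.0054), Pgr (0.0400 ± 0.0260), Hnf4a (0.0217 ± 0.0104) and Hnf4g (0.00667 ± 0.00471). They were left out of the tests. None of the 42 was at 0 in all 12 libraries, and 37 were above 0 in every library.

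**Figure D2:**
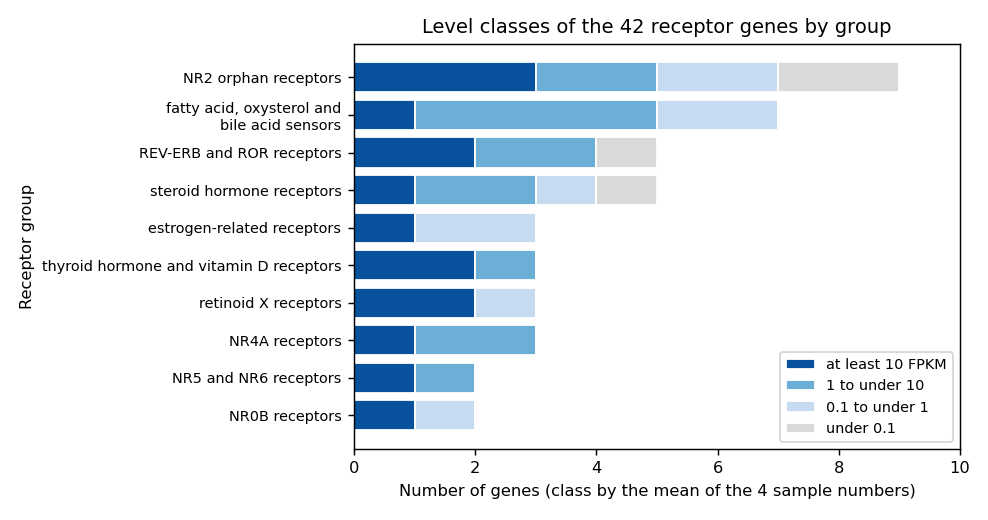
Number of receptor genes in each of 10 groups, split by the mean level of the 4 sample numbers. Every group holds at least 1 gene at 10 FPKM or more, and the genes under 0.1 FPKM lie in the NR2, the REV-ERB and ROR, and the steroid receptor groups.

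Whether a receptor had the same level in the 4 samples was tested with limma, as a moderated F-test on log2(FPKM + 0.1) over the 20795 genes whose mean reached 0.1 FPKM. At a Benjamini-Hochberg adjusted p under 0.05, 25 of the 38 receptors tested differed between the sample numbers. The share among all genes tested was 58.2%, close to that of the receptors (65.8%). The median range between the highest and lowest sample number was 0.55 on this log2 scale both for the receptors and for all genes tested. The calls followed the level: 13 of 15 receptors at 10 FPKM or more were called (84.5% of genes in that class), 10 of 14 between 1 and 10 FPKM (64.0%) and 2 of 9 between 0.1 and 1 FPKM (19.2%). By sample number, 5 of the called receptors were highest in 186wt, 6 in 343wt, 5 in 444wt and 9 in 456wt. Over all genes tested, 9.17% were called and highest in 186wt, 11.0% in 343wt, 21.7% in 444wt and 16.3% in 456wt. Of the called receptors 36% were highest in 456wt and 20% in 444wt, against 28.0% and 37.4% of all called genes, without a test of the difference.

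**Figure D3:**
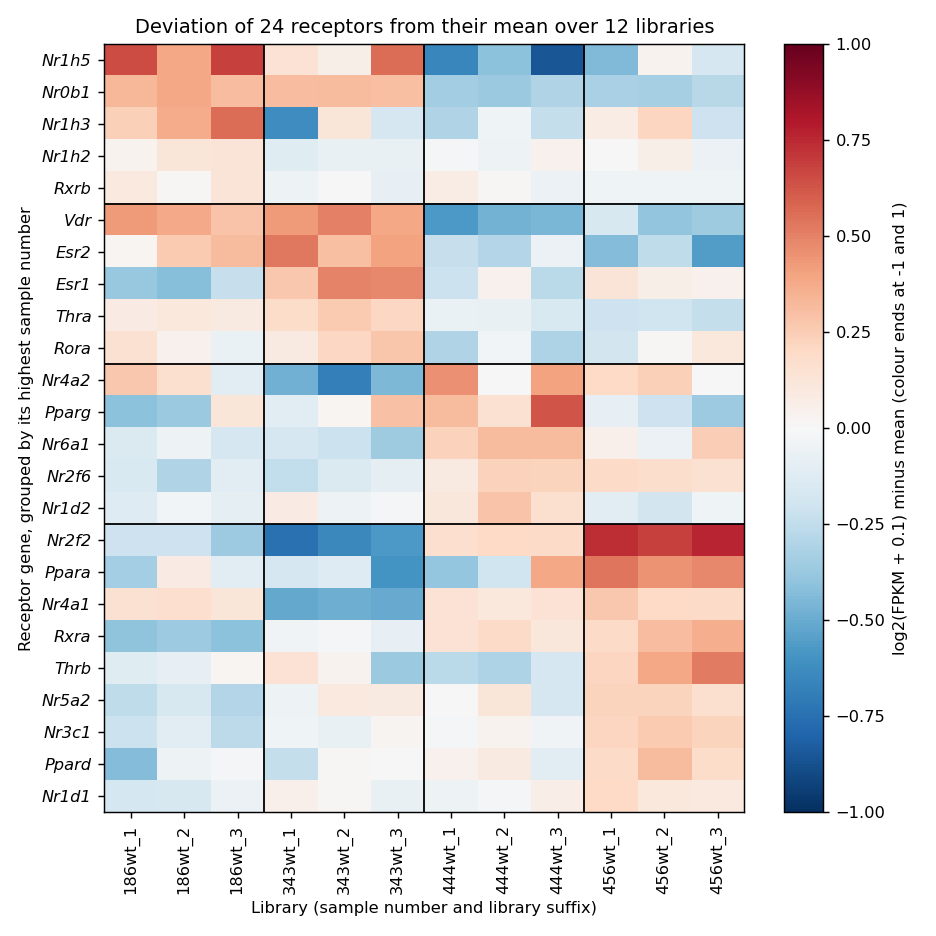
Deviation of log2(FPKM + 0.1) in each of the 12 libraries from the gene's mean over them, for 24 of the 25 receptors that differed between the sample numbers, grouped by the sample number in which they were highest. Within a sample number the 3 libraries mostly share a colour, and Nr2f2 has the widest range, 1.38 on the log2 scale.

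All 3 thyroid hormone and vitamin D receptors were transcribed. All 3 differed between the sample numbers, as did 58.2% of all genes tested. Thra, the alpha receptor for thyroid hormone, was the most abundant receptor at 85.9 ± 11.5 FPKM, with 91.0 in 186wt, 99.3 in 343wt, 79.8 in 444wt and 73.5 in 456wt. Every library of 186wt and 343wt (90.4 to 103 FPKM) lay above every library of 444wt and 456wt (72.3 to 81.5), and limma gave an adjusted p of 3.4e-07. The 3′ ends of Thra and Nr1d1 overlap by 263 exon bases on opposite strands of chromosome 11, and no strand setting of the counting is stated, so reads from that stretch cannot be assigned to one of the genes. Thrb, the beta receptor, lay far lower, at 1.79, 1.81, 1.56 and 2.46 FPKM in the same order, and was highest in 456wt (adjusted p = 0.014, limma).
Vdr, the vitamin D receptor, had one of the widest ranges. Its levels were 26.6 FPKM in 186wt, 28.0 in 343wt, 14.6 in 444wt and 16.7 in 456wt. The libraries of 186wt and 343wt (25.1 to 29.3 FPKM) did not overlap with those of the other sample numbers (13.8 to 18.4), and the highest sample number was 1.92-fold above the lowest (adjusted p = 2.6e-07, limma). The summed Sertoli markers were likewise higher in 186wt and 343wt (4031 and 4171 FPKM, against 2332 and 2503), and their part in the Vdr level was not tested.

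The retinoid X receptors, the shared partners of many other receptors, were represented by Rxrb and Rxra. Rxrb was one of the steadiest members, at 52.3 FPKM in 186wt, 48.0 in 343wt, 49.8 in 444wt and 48.1 in 456wt. Its range of 0.12 on the log2 scale was the narrowest of the 38 and only just passed the test (adjusted p = 0.039, limma). The call was lost in most of the alternatives, with an adjusted p of up to 0.358 in limma. Rxra was less abundant and more variable, with 17.3 FPKM in 186wt, 22.1 in 343wt, 25.2 in 444wt and 27.8 in 456wt (adjusted p = 4.8e-07, limma). The libraries of 186wt (17.1 to 17.6 FPKM) lay below all others. Rxrg, at 0.181 ± 0.013 FPKM, was barely detected, and its 4 levels ranged from 0.163 to 0.193 FPKM.

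Of the 7 receptors for fatty acids, oxysterols and bile acids, 6 differed between the sample numbers, as did 58.2% of all genes tested. Nr1h2, the liver X receptor beta that responds to oxysterols, was the second most abundant receptor at 70.4 ± 3.69 FPKM. It varied little, from 66.1 FPKM in 343wt to 75.1 in 186wt, with 70.0 in 444wt and 70.5 in 456wt (adjusted p = 0.0071, limma). Nr1h3, the liver X receptor alpha, lay at 2.47 ± 0.52 FPKM and was highest in 186wt (3.20).
The peroxisome proliferator-activated receptors, which sense fatty acids, all passed the test near its threshold. Ppard was the most abundant of them (8.42 ± 1.01 FPKM, highest in 456wt at 9.82, adjusted p = 0.044, limma), followed by Pparg (1.49 ± 0.32, highest in 444wt at 1.93, adjusted p = 0.046) and Ppara (1.13 ± 0.30, highest in 456wt, adjusted p = 0.035). For Ppara the levels were 1.00 FPKM in 186wt, 0.880 in 343wt, 1.07 in 444wt and 1.57 in 456wt. When each library was divided by its median ratio to the other libraries, none of these 3 was called.
Nr1h5, a receptor for lanosterol, had the second widest range of the called members at a low level. It lay at 0.793 FPKM in 186wt, 0.620 in 343wt, 0.287 in 444wt and 0.427 in 456wt (adjusted p = 0.0031, limma). Every library of 186wt and 343wt (0.520 to 0.860) was above every library of the other sample numbers (0.230 to 0.510). The gap between 0.520 and 0.510 FPKM is below 1 fragment per library, which is about 0.03 FPKM for 2 kb of usable length. Nr1h4, the bile acid receptor, ranged from 0.0367 to 0.190 FPKM, and its difference did not pass (adjusted p = 0.073, limma).

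Among the REV-ERB and ROR receptors, which respectively repress and activate clock genes through shared elements, 4 of 5 could be tested. All 4 differed, as did 58.2% of all genes tested. Nr1d2 (REV-ERB beta) was the most abundant, at 26.2 FPKM in 186wt, 28.0 in 343wt, 31.8 in 444wt and 25.8 in 456wt (adjusted p = 0.0020, limma). Nr1d1 (REV-ERB alpha), which shares exon bases with Thra, lay at 15.7, 17.2, 17.3 and 19.0 FPKM in the same order (adjusted p = 0.0048, limma). Nr1d1 was highest in 456wt, where Thra was lowest.
Rora, the gene for ROR alpha, lay at 4.26, 4.72, 3.56 and 4.07 FPKM (adjusted p = 0.039, limma), and Rorb was not detected above 0.0633 FPKM in any sample number.

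The steroid hormone receptors were mostly low. Nr3c1, the glucocorticoid receptor, was the exception, at 12.3 FPKM in 186wt, 13.7 in 343wt, 14.0 in 444wt and 16.5 in 456wt (adjusted p = 7.3e-05, limma). The libraries of 456wt (16.3 to 16.9 FPKM) lay above all others. Nr3c2, the mineralocorticoid receptor, lay at 1.42, 1.19, 1.01 and 1.29 FPKM, and its difference did not pass the test (adjusted p = 0.17, limma).
Both estrogen receptors differed between the samples, and both were highest in 343wt. Esr1, the alpha receptor, was at 1.85 FPKM in 186wt, 3.20 in 343wt, 2.14 in 444wt and 2.51 in 456wt, and all 3 libraries of 343wt (2.88 to 3.38) lay above the rest (adjusted p = 6.0e-04, limma). The Sertoli, Leydig and macrophage marker sums were also highest in 343wt, but they were lowest in 444wt, whereas Esr1 was lowest in 186wt. The part of these cells in the Esr1 level was not tested. Esr2, the beta receptor, was at 0.833, 0.980, 0.610 and 0.510 FPKM, with 0.720 to 1.07 in the libraries of 186wt and 343wt and 0.450 to 0.680 in those of 444wt and 456wt (adjusted p = 0.0045, limma). Pgr, the progesterone receptor, had a level of 0.02, 0.0533, 0.0700 and 0.0167 FPKM. At the estimated depth, 3 fragments over all 12 libraries correspond to 0.00826 FPKM for a transcript with 2 kb of usable length, so values of this size rest on few fragments.

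The NR2 receptors, which include the COUP transcription factors and the testicular receptors, held 9 members, of which 7 were tested. Of these 7, 2 differed, against 58.2% of all genes tested. Nr2f2, which encodes COUP-TFII, had the widest range of all tested receptors. It lay at 18.9 FPKM in 186wt, 14.4 in 343wt, 25.8 in 444wt and 37.7 in 456wt. The libraries of the 4 sample numbers formed 4 separate ranges (17.6 to 19.6, 13.5 to 15.2, 25.5 to 26.1 and 36.4 to 38.6 FPKM), and the highest sample number was 2.62-fold above the lowest (adjusted p = 5.7e-09, limma). The 4 sample numbers took the same order by Nr2f2 and by the summed peritubular myoid markers (343wt, 186wt, 444wt, 456wt, from 329 to 1508 FPKM), of which Acta2 was the most abundant (473 FPKM). Des was the exception among these markers, lower in 186wt (5.31 FPKM) than in 343wt (6.10). The part of myoid cells in the Nr2f2 level was not tested.
Nr2f6, which encodes the related EAR2, was at 32.6 FPKM in 186wt, 33.2 in 343wt, 42.1 in 444wt and 41.8 in 456wt (adjusted p = 1.2e-04, limma). This is the opposite side of the split seen for Vdr, with libraries of 30.1 to 34.9 FPKM in the former pair and 39.4 to 43.6 in the latter. Exons of Nr2f6 share 1622 bases with Ocel1 on the opposite strand, so its level may hold reads of that gene.
The testicular receptors Nr2c2 (TR4, 12.8 ± 0.82 FPKM) and Nr2c1 (TR2, 4.56 ± 0.35) were steady, with ranges of 0.21 and 0.24 on the log2 scale and adjusted p of 0.099 and 0.052 in limma. Nr2c2 shares 3533 exon bases with Mrps25 on the opposite strand. Nr2e1, which is known from neural stem cells, lay at 1.14 ± 0.17 FPKM, and Nr2e3, known from photoreceptors, at 0.103 ± 0.051. The hepatocyte factors Hnf4a and Hnf4g were the lowest of the 42.

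The NR4A receptors are orphan receptors whose genes respond within minutes to stimuli, as other immediate-early genes do. Nr4a1 dominated, with 52.3 FPKM in 186wt, 33.4 in 343wt, 51.7 in 444wt and 55.1 in 456wt. The libraries of 343wt agreed closely with each other (33.1, 33.7 and 33.3 FPKM) and lay far below the other 9, which ranged from 50.9 to 57.1 (adjusted p = 2.4e-09, limma). Nr4a2 was lowest in 343wt as well, at 1.36, 0.833, 1.57 and 1.40 FPKM (adjusted p = 0.0045, limma), and so was Nr4a3 at 1.63, 1.07, 1.29 and 1.42, though its difference did not pass (adjusted p = 0.083).
Of 15 other immediate-early genes, 14 differed between the sample numbers (93.3%, against 58.2% of all genes tested and 84.5% of those at 10 FPKM or more), 6 of them highest in 343wt and 8 in 456wt. Btg2, like Nr4a1, was lowest in 343wt (45.0 FPKM) and highest in 456wt (69.5). The summed level of the 15 genes was 1140 FPKM in 186wt, 1385 in 343wt, 1218 in 444wt and 1628 in 456wt, with Fos, Egr1 and Jun as the most abundant (291 ± 70.7, 208 ± 21.6 and 188 ± 34.0 FPKM). The widest ranges were those of Atf3, Dusp1 and Junb (1.23, 1.17 and 1.07 on the log2 scale). The cells had been dissociated with enzymes before RNA extraction, and the part of that step in these levels was not tested.

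Nr6a1, the germ cell nuclear factor, a repressor known from germ cells and early embryos, lay at 11.7 FPKM in 186wt, 10.7 in 343wt, 15.5 in 444wt and 13.5 in 456wt (adjusted p = 3.9e-04, limma). It was highest in 444wt, as were the summed markers of spermatogonia (831 FPKM) and of meiotic germ cells (599 FPKM), and lowest in 343wt, as was the meiotic sum (368 FPKM). The spermatogonia sum was lowest in 186wt instead (596 FPKM, against 623 in 343wt). The part of germ cells in the Nr6a1 level was not tested. Nr5a2, the liver receptor homolog, was at 1.71, 2.10, 2.02 and 2.35 FPKM (adjusted p = 0.021, limma).
Nr0b1 (DAX1), a receptor on the X chromosome that lacks a DNA-binding domain and represses other receptors, was the fifth most abundant member. Its levels were 53.4 FPKM in 186wt, 52.0 in 343wt, 33.1 in 444wt and 33.9 in 456wt. The 6 libraries of the former pair (51.9 to 55.1 FPKM) were far from the 6 of the latter (32.4 to 34.7), with the smallest adjusted p among the receptors (2.1e-09, limma). Its relative Nr0b2 (SHP) lay at 0.753, 1.00, 0.450 and 0.813 FPKM, with single libraries from 0.200 to 1.35, and its difference did not pass (adjusted p = 0.17).
The estrogen-related receptors, orphan receptors that control mitochondrial genes, were represented by Esrra at 10.3 ± 0.87 FPKM. Esrrb lay at 0.891 ± 0.179 and Esrrg at 0.278 ± 0.070. In limma none of the 3 passed at an adjusted p under 0.05 (0.073 for Esrra, 0.30 and 0.17 for the others), and 1, Esrra, had an unadjusted p under 0.05.

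**Figure D4:**
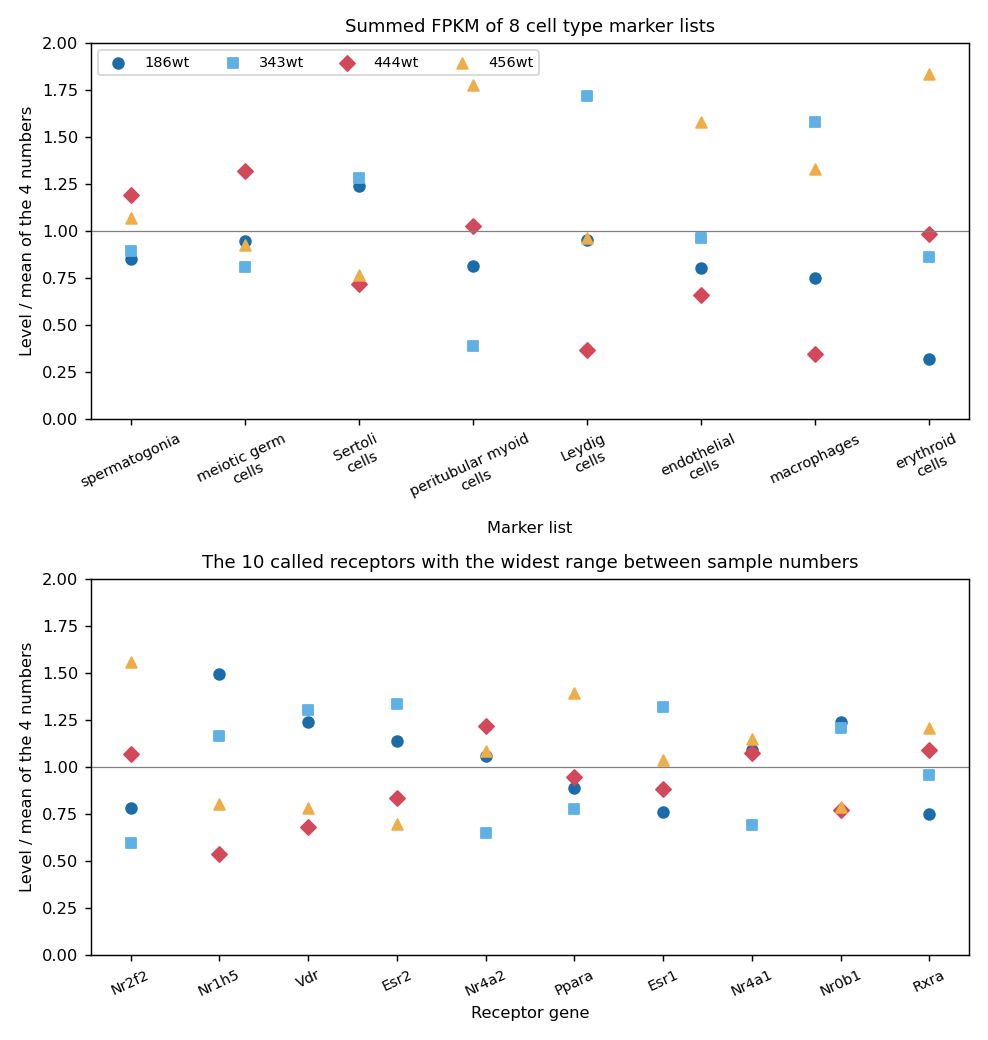
Summed FPKM of 8 cell type marker lists (top) and FPKM of the 10 called receptors with the widest range (bottom), each divided by its mean over the 4 sample numbers, with 1 symbol per number. The Sertoli sum, Vdr, Esr2, Nr1h5 and Nr0b1 are above 1 in 186wt and 343wt and below 1 in 444wt and 456wt, and the myoid sum and Nr2f2 take the same order.

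The split of 186wt and 343wt from 444wt and 456wt thus ran through several families. Thra, Vdr, Nr0b1, Esr2 and Nr1h5 had all libraries of the former pair above all of the latter, and Nr2f6, Nr2f2 and Rxra had all of them below. For the low genes Esr2 and Nr1h5 the nearest libraries were close (0.720 against 0.680 FPKM, and 0.520 against 0.510). The genes of this split were picked out after their values were seen, and the split follows no label. How many of all genes tested show the same split was not counted, so it cannot be called particular to the receptors. The median ratio of each library to the others fell on the same sides. It was 0.968 to 0.980 in 186wt and 343wt and 1.022 to 1.035 in 444wt and 456wt. Of the 9 Sertoli markers, 8 had both levels of 186wt and 343wt above both of the others. Inhba was the exception, lowest in 186wt (0.783 FPKM) and highest in 343wt (1.86).

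The genes of the proteins through which receptors act had higher median levels than the receptors. Of 13 coactivator genes, 11 reached 1 FPKM, and their median level was 25.1 FPKM. Pprc1 was the most abundant at 63.5 ± 9.64 FPKM, followed by Ncoa2 (56.4 ± 12.4), a partner of many receptors, and Med1 (31.8 ± 2.84), the Mediator subunit that contacts receptors. The PGC-1 genes Ppargc1a and Ppargc1b, coactivators of energy metabolism, were below 1 FPKM (0.823 ± 0.148 and 0.345 ± 0.065). In limma 10 of the 13 differed between the sample numbers, a share of 76.9% against 58.2% of all genes tested and 84.5% of those at 10 FPKM or more. Of the 10, 7 were highest in 444wt (70%, against 37.4% of all called genes) and 3 in 343wt. The 3 highest in 343wt were Ncoa1, Ncoa2 and Ncoa7. Ncoa7 had the widest range (11.8, 13.1, 7.53 and 8.10 FPKM in 186wt, 343wt, 444wt and 456wt), followed by Ncoa2 (64.0, 69.8, 45.0 and 46.8) and the low Ppargc1b.
All 8 corepressor genes exceeded 1 FPKM, with a median of 36.0 FPKM. Among the abundant ones were the histone deacetylase gene Hdac3 (61.4 ± 2.56 FPKM) and Ncor1 (60.1 ± 2.79). Between the sample numbers 7 of the 8 differed (87.5%, against 58.2% of all genes tested and 84.5% of those at 10 FPKM or more). Their median range was 0.19 on the log2 scale, against 0.42 for the coactivators and 0.55 for all genes tested. Nrip1, Lcor and Gps2 had the widest ranges, and Nrip1 (12.96, 13.3, 9.23 and 8.91 FPKM) was higher in 186wt and 343wt like Vdr.
The chaperones that hold steroid receptors before ligand binds were the most abundant list, led by Hsp90ab1 (852 ± 57.5 FPKM), Hsp90aa1 (390 ± 58.8) and Fkbp4 (254 ± 11.9). All 8 differed between the sample numbers, against 84.5% of all genes at 10 FPKM or more, with a median range of 0.23 on the log2 scale. Hsp90aa1, which is also abundant in germ cells, was highest in 444wt (465 FPKM) and had the widest range of the list, followed by Ahsa1 and Stip1.

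Known target genes of the receptors were present at levels from 1.2 to 110 FPKM. Of 14 such genes, 11 differed between the sample numbers (78.6%). The share was 58.2% of all genes tested, 64.0% of those from 1 to 10 FPKM and 84.5% of those above. Tsc22d3 (GILZ) and Srebf1, targets of the glucocorticoid receptor and of the liver X receptors, were the most abundant at 110 ± 23.7 and 45.0 ± 4.32 FPKM. Abca1, a cholesterol exporter induced by liver X receptors, followed at 25.2 ± 4.69.
The widest ranges were those of Pou5f1, a pluripotency gene repressed by Nr6a1, Angptl4 and Pdk4, both of which respond to fatty acid receptors. Pou5f1 was at 5.48 FPKM in 186wt, 6.83 in 343wt, 12.0 in 444wt and 7.52 in 456wt, so that it was highest in the sample number in which Nr6a1 was also highest. Angptl4 was at 10.7, 11.9, 16.0 and 22.9 FPKM and Pdk4 at 0.910, 1.26, 0.987 and 1.64, both highest in 456wt.
Of the 10 core clock genes, 9 differed (90%, against 58.2% of all genes tested, 64.0% of those from 1 to 10 FPKM and 84.5% of those above), with a median range of 0.35 on the log2 scale. Per1 (41.9 ± 2.57 FPKM), Dbp (32.0 ± 3.94) and Cry2 (28.7 ± 2.84) were the most abundant. Arntl, which REV-ERB receptors repress, lay at 6.01 ± 0.32 and did not pass (adjusted p = 0.12, limma). Per3, Npas2 and Nfil3 had the widest ranges, and Nfil3, itself a target of REV-ERB receptors, lay at 5.32, 5.52, 3.49 and 3.78 FPKM in 186wt, 343wt, 444wt and 456wt. The time of day at which tissue was taken is not given in the sources used here.

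The promoters of the receptor genes were also searched for 3 short motifs. RefSeq promoters (GRCm38.p6, 250 bases before to 50 bases after each start) were matched for 38 of the 42 genes, as 55 promoters. On either strand, the receptor-binding hexamer AGGTCA occurred in 10 of the 55 (18.2%), against 16.3% of all 32851 promoters. The E-box CACGTG, which clock factors bind, occurred in 3 (5.45%, against 7.15%), and the cyclic AMP response element TGACGTCA in 2 (3.64%, against 1.79%). Nr0b1, Nr1d2, Nr6a1 and Rxra were among the 9 genes with the hexamer. A match describes these letters only, and these counts carry no test.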

How the data were processed

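RNA-seq was measured in 12 libraries of enriched B6 germ cells at 12 dpp. Paired-end reads of 100 bp were mapped by the authors to NCBI build 37 transcripts (Bowtie 0.12.9), those with at least 2 mismatches were dropped, and FPKM were obtained with RSEM 1.2.8. The deposited FPKM are rounded to 2 decimals and cover 37620 genes. RSEM divides reads between similar transcripts, and a strand setting is not given in the sources used here. ChIP-seq and Affinity-seq samples were not analysed here.

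Receptors were chosen by symbol, and the members and lists were chosen with earlier results of these data known. The 3 libraries of a sample number were averaged. The deposited FPKM are not counts, so no count test was run. limma 3.58.1 (R 4.3.3; lmFit, eBayes with trend) compared the 4 sample numbers on log2(FPKM + 0.1), with adjustment over the 20795 genes whose mean reached 0.1 FPKM, and was tested on simulated data. Differences on this scale understate those of low genes. Named with values per sample number were the 10 highest receptors, the 10 called ones with the widest range and their groups of at most 5, and of each pathway list the 3 highest and 3 widest. Other values were named after they were seen. A receptor, a corepressor and 1 sequence are counted where they belong but not reported here by name.

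The depth was estimated from the steps between low FPKM of genes with 500 to 1600 bases of transcript, as 12.9 to 17.9 M fragments per library (median 15.0), so that 0.1 FPKM is about 3 fragments per library for 2 kb of usable length. This covers counting error only. Libraries of 1 number correlated at r = 0.976 to 0.982 across genes, and those of different numbers at 0.947 to 0.970. Genes were placed with GENCODE M1, and 9 receptors share exon bases with a gene on the opposite strand. Coding sequences came from GENCODE M1, and 22 of 22 fingers within 1 exon matched the genome at their positions. Pseudocounts, scaling, filters, a block and left-out libraries were tried as alternatives. Figures used Python 3.11.15.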

Additional observations from a re-analysis of the deposited data

Results flagged for a closer look

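In 2 of the 42 receptors, 1 of the 4 sample numbers was set apart from the other three by most of the whole range. About 2.1 of 42 would be set apart by chance. Nr4a1 was at 33.4 FPKM in 343wt, against 51.7 to 55.1 FPKM in the others (ratio 0.842), and its mean without 343wt was 53.0 FPKM. Nr2f1 was at 0.270 FPKM in 186wt, against 0.363 to 0.373 FPKM (ratio 0.903), but its single libraries overlapped, from 0.170 to 0.650 FPKM, and its difference did not pass (adjusted p = 0.89, limma).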

How the results depend on the processing

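The number of receptors that differed between the sample numbers was 25 of 38, and it was 25 with pseudocounts of 1 and 0.01, 25 with median-ratio scaling (without Ppara, Ppard and Pparg, and with Esrra, Nr2c1 and Nr2c2), 25 without the trend in eBayes, 24 of 29 with a mean of at least 1 FPKM and 20 of 42 with no filter. Without single libraries it was 20 to 24, and without a whole sample number 19 or 20. With the library suffix as a replicate block it was 22, with the calls of Ppara, Rora and Rxrb lost, and 15 of 21 coactivators and corepressors and 18 of 24 target and clock genes were called, against 17 and 20. The suffix does not pair the libraries: deviations of libraries with the same suffix correlated at -0.0648 to 0.128 over 18 pairs. All 84 values of the counts stayed within 1.5 times. Of 343 values for the ranges of the 15 receptors followed singly, 29 no longer passed, mostly of Rxrb and Ppara, and also of Nr1h2 without 186wt or 343wt, Nr1d2 without 444wt, and Esr2 and Nr4a2 without 343wt. A range is the highest minus the lowest sample number and has no sign, so it cannot show a reversal. Whether the order of the sample numbers changed was not tested. The causes of the lost calls were not tested. At about 3 fragments per library for 0.1 FPKM, depth limits the low genes. Of the 9 receptors between 0.1 and 1 FPKM, 2 were called.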
